A study of Mus musculus with 12 samples.

Results

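The genes described here are 37 genes of glycolysis and of the response to hypoxia, chosen by name, out of 27274 genes on the array. All 37 were found, and 34 of them were bright enough to be tested, among 16385 genes tested in all. They were measured in macrophages sorted from pancreas tumor tissue (6 arrays) and from normal pancreas (6 arrays) of mice. All mice are labelled female, C57/B6 and 4 to 5 months old, with no genotype provided in any sample label. The protocol speaks of implanted tumors, while the series design names wild-type, KPC and FLT3-CRE/LSL-YFP mice, and no label says which mice gave which sample or whether animals were pooled. In KPC mice a Cre of pancreas cells drives the formation of ductal adenocarcinoma, and in FLT3-CRE/LSL-YFP mice blood cells that arise through a Flt3-expressing progenitor carry a yellow fluorescent protein.

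Glycolysis splits glucose into pyruvate in the cytosol, and inflammatory macrophages turn much of that pyruvate into lactate, which leaves the cell through monocarboxylate transporters. When oxygen is low, prolyl hydroxylases of the EGLN family no longer mark the alpha subunits of the hypoxia-inducible factors (HIF) for destruction, and HIF binds short elements with the core RCGTG near its target genes. The targets include many glycolytic genes, the glucose transporter Slc2a1, Vegfa and the prolyl hydroxylase Egln3. In macrophages HIF-1 is also induced by inflammatory signals at normal oxygen.

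Each array was read in 1 colour, and each level below is the log2 of the signal relative to the 75th percentile of its own array. A level belongs to a probe, so levels of different genes are not compared. Tumor replicates 4 and 6 carry 1 sample name, as do normal replicates 2 and 3, and each pair was averaged, which left 5 samples per group. Values are listed in the order of tumor replicates 1, 2, 3, 4 with 6, and 5, and of normal pancreas replicates 1, 2 with 3, 4, 5 and 6. The share of probes well above background ran from 39.3% to 58.8% over the arrays. The 14 macrophage markers were all detected in both groups and made up 0.594% to 0.721% of the summed signal in tumor samples and 0.593% to 0.802% in normal pancreas samples. Of their differences 5 were positive and 9 negative, with a median of -0.15. Of the 14, 0 passed the adjusted threshold, and 2 were lower and 0 higher in tumor at an unadjusted limma p under 0.05. Markers of pancreatic acinar cells made up 0.00843% to 0.201% in tumor samples and 0.545% to 3.46% in normal pancreas samples, and 16 of the 18 fell. Monocyte markers made up 0.0241% to 0.0623% in tumor samples and 0.0066% to 0.013% in normal pancreas samples, with rises that included Hp and F10. Neutrophil markers made up 0.0205% to 0.0272% in tumor samples and 0.0136% to 0.0203% in normal pancreas samples. Of the 9 tested, 7 had positive and 2 negative differences, and only Retnlg passed the adjusted threshold, as a rise. Islet markers made up 0.00432% to 0.00708% in tumor samples and 0.0114% to 0.255% in normal pancreas samples. Sst and Iapp were at background on all tumor arrays, and Chga on all arrays of both groups. Dendritic cell markers made up 0.00448% to 0.0268% in tumor samples and 0.0018% to 0.0131% in normal pancreas samples, and 5 of the 6 tested had positive differences. No islet or dendritic marker passed the adjusted threshold, and 4 islet markers were lower and 3 dendritic markers higher in tumor at an unadjusted limma p under 0.05.

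In tumor samples 1 of the 34 tested genes rose, the lactate exporter Slc16a3, and 0 fell (limma, adjusted p under 0.05 over all genes tested). Among all genes tested 0.317% passed as higher in tumor and 0.513% as lower. At an unadjusted p under 0.05 the count was 9 higher in tumor and 0 lower, against 6.7% of all genes higher and 6.25% lower. The 9 were Slc16a3, Pgam1, Pfkl, Pfkp, Hk2, Aldoc, Slc2a1, Pfkfb3 and Ero1l. Of the 34 log2 differences, Hif1a and Ankrd37 included though they were tested through the tumor arrays alone, 27 were positive, where 49.7% of all genes had a positive difference. Their median was 0.54, with a range from -0.55 to 1.86, beside a median of -0.0032 over all genes tested. With the 3 untested genes included, 29 of 37 were positive and the median was 0.47. Among the 26 genes well above background on all 12 arrays, 20 were positive with a median of 0.47, beside a median of -0.04 over the 10045 genes that met the same condition. In RNA of a sorted population, fewer cells of a type and less RNA per cell cannot be told apart. Each of the 18 acinar markers was lower in every tumor sample than in every normal pancreas sample. With their mean as a covariate limma called 0 of the 34 genes and 0 of all genes (0 and 509 genes at an unadjusted p under 0.05). This covariate largely follows the 2 groups, so the fit cannot tell acinar RNA and group apart. The part of monocyte, neutrophil, dendritic cell and islet RNA in these differences was not tested.

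**Figure D1:**
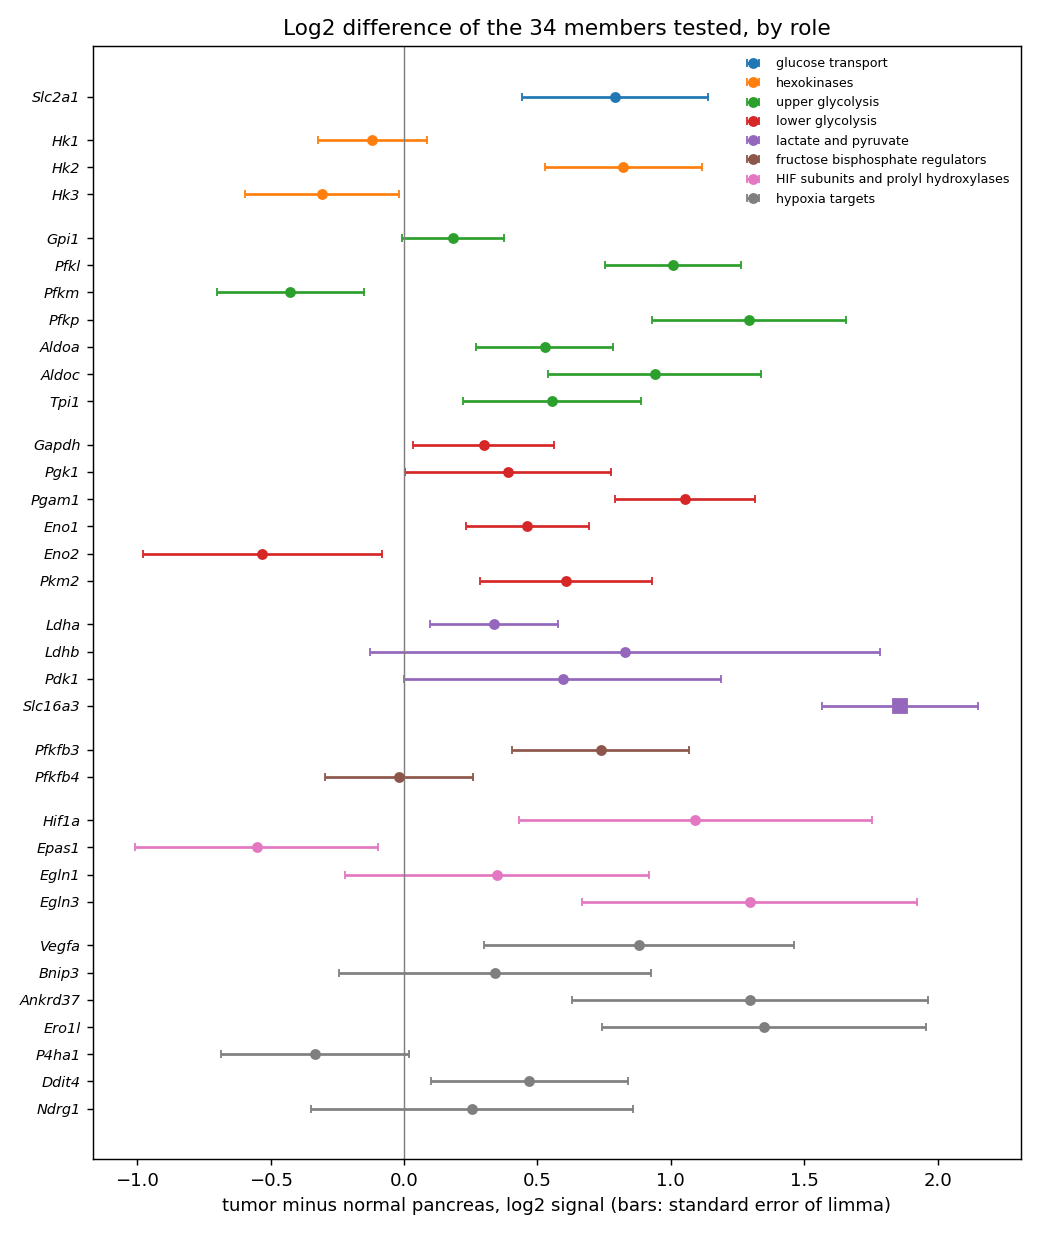
Log2 difference of each of the 34 genes tested, tumor minus normal pancreas, with limma standard errors as bars, grouped and coloured by role. The square marks Slc16a3 at 1.86, the gene that passed the adjusted threshold, and 27 of the 34 points lie right of 0.

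Slc16a3 encodes MCT4, a monocarboxylate transporter that carries lactate out of cells with a high glycolytic rate. Its level was 4.83, 5.47, 5.26, 4.44 and 4.78 in tumor samples, against 3.48, 3.55, 2.91, 2.37 and 3.17 in normal pancreas samples. The groups did not overlap, which held for 2 of the 34 genes, Slc16a3 and Pfkl, and for 1.77% of all genes in the same direction. In the opposite direction it held for 0 of the 34 and 1.67% of all genes. The mean was 4.96 ± 0.41 in tumor and 3.10 ± 0.48 in normal pancreas (SD, n = 5 each), a log2 difference of 1.86 ± 0.29 (SE) or 3.63-fold (limma adjusted p = 0.0164). The probe lies on chromosome 11 at 120820023 to 120820082 on the plus strand (mm9, per the array annotation, which gives no exon or intron). A second Slc16a3 probe, which shares 53 of its 60 bases with the first, gave 1.85, so it is hardly a separate measurement. The difference was 1.62, 1.70 and 1.77 within slides 1, 2 and 3 (limma adjusted p = 0.411, 0.41 and 0.673) and 1.82 with the slide as a block (0.00847). With the acinar marker mean as a covariate it was 1.40 with an unadjusted p of 0.069 (limma adjusted p = 0.9995). Without any 1 of the 10 samples it stayed between 1.68 and 1.99, with limma adjusted p from 0.0207 to 0.0495.

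**Figure D2:**
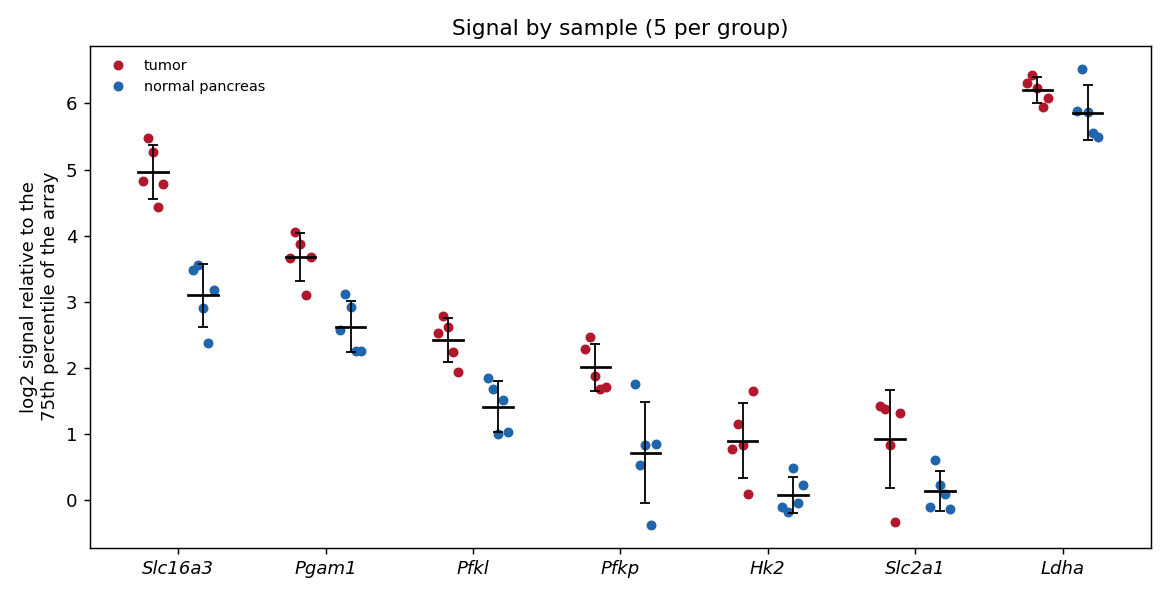
Level of 7 genes in each sample, as log2 signal relative to the 75th percentile of the array, with tumor samples (red) left of normal pancreas samples (blue), and with bars for mean and SD (n = 5 each). The groups are apart for Slc16a3 and Pfkl and overlap for Pgam1, Pfkp, Hk2, Slc2a1 and Ldha, and heights of different genes are not comparable.

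The promoters of the 4 genes with the smallest p are shown because they hold the core of the HIF element. Each is the stretch of 250 bases before the annotated start, on the gene's strand, from RefSeq on GRCm38.p6, with the cores ACGTG and GCGTG in capitals on either strand (so CACGT and CACGC also count). The Slc16a3 window is chr11:120948817-120949066 on the plus strand, the Pgam1 window chr19:41911621-41911870 on the plus strand, the Pfkl window chr10:78009808-78010057 on the minus strand and the Pfkp window chr13:6648772-6649021 on the minus strand.
Slc16a3: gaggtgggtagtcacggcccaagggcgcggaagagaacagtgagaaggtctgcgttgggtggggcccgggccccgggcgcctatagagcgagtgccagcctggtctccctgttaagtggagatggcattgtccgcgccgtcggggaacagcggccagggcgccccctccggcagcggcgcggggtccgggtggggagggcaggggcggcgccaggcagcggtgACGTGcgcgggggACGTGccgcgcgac
Pgam1: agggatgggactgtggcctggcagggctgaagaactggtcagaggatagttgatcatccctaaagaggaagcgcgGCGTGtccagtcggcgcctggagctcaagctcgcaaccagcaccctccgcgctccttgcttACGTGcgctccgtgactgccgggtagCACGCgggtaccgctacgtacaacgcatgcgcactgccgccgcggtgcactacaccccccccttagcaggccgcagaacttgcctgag
Pfkl: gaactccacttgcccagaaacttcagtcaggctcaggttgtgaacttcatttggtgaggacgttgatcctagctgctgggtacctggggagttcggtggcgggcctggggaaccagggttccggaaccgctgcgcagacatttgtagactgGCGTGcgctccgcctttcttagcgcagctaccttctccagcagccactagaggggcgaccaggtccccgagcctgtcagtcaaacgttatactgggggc
Pfkp: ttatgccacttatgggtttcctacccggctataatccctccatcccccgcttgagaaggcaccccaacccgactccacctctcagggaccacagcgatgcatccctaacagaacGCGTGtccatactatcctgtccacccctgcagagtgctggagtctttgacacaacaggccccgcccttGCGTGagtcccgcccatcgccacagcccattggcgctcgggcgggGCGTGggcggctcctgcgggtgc
Counted from the start, the cores begin at -27 and -14 in Slc16a3, at -175, -114 and -88 in Pgam1, at -99 in Pfkl and at -136, -68 and -23 in Pfkp. In windows of 300 bases, which add 50 bases after the start, 31 of the 34 genes with a promoter in the table held a core (91.2%) and 25 held at least 2 (73.5%). These are not the 34 genes tested, since they include the untested Adm and Pdk3 and lack Slc2a3, Epas1 and Ndrg1. Among the 11036 genes tested with a promoter there, 61.2% held a core and 33.6% at least 2. The median GC content of the windows was 65.2% for the 34 genes with a promoter and 60.3% for the genes tested. Many of these genes were placed in such lists because they are known HIF targets, so the share is a description of the list. Genes with negative log2 differences held cores too, with up to 3 in a window of Pfkm and up to 5 in a window of Hk1. A window of Ldha, whose log2 difference was positive (0.34), held 7. A stretch CACGTG holds a core on each strand and was counted as 2, as at -145 and -144 and at -48 and -47 in Ldha. The Pfkm cores at -136 and -135 are such a stretch too. The counts, and the shares with at least 2, are therefore of cores read on either strand and not of separate sites.

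Glucose enters the cell through facilitative transporters. Slc2a1 (GLUT1), the transporter with high affinity that HIF and growth signals induce, had levels of 1.42, 1.38, 0.83, -0.33 and 1.32 in tumor samples, against -0.11, 0.60, 0.23, 0.09 and -0.13 in normal pancreas samples. Tumor replicates 1, 2, 3 and 5 lay above all normal samples, and tumor replicates 4 with 6 lay below all of them. The log2 difference of Slc2a1 was 0.79 ± 0.35 (SE, limma adjusted p = 0.37), and without the sample of replicates 4 and 6 it reached 1.103, with a lowest limma adjusted p of 0.092. Slc2a3 (GLUT3) was well above background on 2 tumor arrays and 1 normal pancreas array and was not tested.

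Hexokinases trap glucose as glucose 6-phosphate. Hk2, the inducible isozyme bound to mitochondria, had levels of 0.77, 1.16, 0.84, 0.09 and 1.64 in tumor samples, against -0.10, -0.18, 0.48, -0.05 and 0.24 in normal pancreas samples. Its tumor samples were higher apart from replicates 4 with 6, which lay within the normal range, and the log2 difference was 0.82 ± 0.29 (SE, limma adjusted p = 0.274). The level of Hk1, the constitutive isozyme, ran from 4.77 to 5.33 in tumor samples and from 5.01 to 5.42 in normal pancreas samples, at a log2 difference of -0.12 ± 0.20 (SE). The level of Hk3, a hexokinase of myeloid cells, ran from -0.13 to 1.32 in tumor samples and from 0.60 to 1.04 in normal pancreas samples, at -0.31 ± 0.29. The normal pancreas values of Hk3 lay inside the wider range of its tumor values. Probes of 4 other names share at least 25 bases with the Hk1 probe, so its signal may not be its own.

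Among the 7 enzymes from glucose 6-phosphate to the triose phosphates, 6 of 7 differences were positive, with a median of 0.55, and 0 passed. Phosphofructokinase commits sugar to glycolysis, and its isozymes are named for liver (Pfkl), muscle (Pfkm) and platelets (Pfkp). Pfkl had levels of 2.53, 2.79, 2.62, 2.24 and 1.94 in tumor samples, against 1.84, 1.68, 1.01, 1.51 and 1.03 in normal pancreas samples. Every tumor sample lay above every normal sample, with a log2 difference of 1.01 ± 0.26 (SE, limma adjusted p = 0.121, chromosome 10 at 77450926 to 77450985, mm9). Pfkp had levels of 2.29, 2.47, 1.88, 1.68 and 1.71 in tumor samples, against 1.75, 0.53, 0.83, -0.37 and 0.85 in normal pancreas samples. Normal replicate 1 lay within the tumor range and the other normal samples below it, with a log2 difference of 1.29 ± 0.36 (SE, limma adjusted p = 0.16). The level of Pfkm ran from -0.62 to 0.47 in tumor samples and from -0.23 to 0.79 in normal pancreas samples, at a log2 difference of -0.43 ± 0.28 (SE), and its groups overlapped.

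Pfkp has 2 probes that gave unequal differences, shown here because the size of its difference depends on them. The probe used, which was the brighter, lies within chromosome 13 from 6581718 to 6583872 on the minus strand (mm9), a span longer than the 60 bases of the probe. The other lies at 6579124 to 6579183 on the same strand and holds the polyadenylation signal AATAAA, in capitals in the stretch of 30 bases printed.
Pfkp probe used: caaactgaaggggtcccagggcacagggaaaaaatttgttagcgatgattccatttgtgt
Pfkp other probe, stretch: tttttgccagtcAATAAAcacctttggttg
The other probe had a mean level of -0.12 ± 0.34 in tumor and -0.29 ± 0.26 in normal pancreas (SD, n = 5 each), a difference of 0.16 against 1.29 for the probe used. Both probes were well above background on all 12 arrays. Over all the genes described, 64 probes were on the array, and of 23 further probes bright enough to be compared 22 had the sign of the probe used, the exception being a dim second probe of Pfkfb4 (0.51). The 23 belong to 13 genes, and those of Gpi1, Pgk1 and Slc16a3 overlap the probe used. A shared sign did not mean a shared size in other genes either. The Ldha probe used gave 0.34, and its other probes gave 0.76 and 0.41. The 8 Gapdh probes ran from 0.016 to 0.66, with 0.30 for the one used. For 21 genes only 1 probe was on the array.

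Aldolase splits fructose bisphosphate, and Tpi1 interconverts the products. Aldoc, an isozyme of brain that hypoxia also induces, had levels of 3.15, 3.28, 2.74, 1.70 and 2.83 in tumor samples, against 2.22, 1.95, 0.57, 1.90 and 2.37 in normal pancreas samples. The groups overlapped through tumor replicates 4 with 6, and the log2 difference was 0.94 ± 0.40 (SE, limma adjusted p = 0.357). Aldoa, the main isozyme of most cells, had levels of 4.69, 4.94, 4.82, 4.37 and 4.65 in tumor samples, against 4.13, 4.72, 4.34, 4.19 and 3.45 in normal pancreas samples. Normal replicates 2 with 3 lay inside the tumor range, and the log2 difference was 0.53 ± 0.26 (SE, limma adjusted p = 0.421). The level of Tpi1 ran from 3.31 to 4.54 in tumor samples and from 2.59 to 4.08 in normal pancreas samples, at 0.55 ± 0.33. Gpi1, which isomerises glucose 6-phosphate, ran from 4.78 to 5.24 in tumor samples and from 4.54 to 4.98 in normal pancreas samples, at 0.18 ± 0.19, and both genes overlapped between the groups.

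Among the 6 enzymes from glyceraldehyde 3-phosphate to pyruvate, 5 of 6 differences were positive, with a median of 0.43, and 0 passed. Pgam1, the phosphoglycerate mutase of most tissues, had levels of 3.67, 4.06, 3.88, 3.10 and 3.68 in tumor samples, against 2.58, 3.11, 2.92, 2.26 and 2.25 in normal pancreas samples. Tumor replicates 4 with 6 and normal replicates 2 with 3 were level at the edge of the groups, and the other tumor samples lay above all normal samples. The log2 difference of Pgam1 was 1.05 ± 0.26 (SE, limma adjusted p = 0.115, chromosome 19 at 41992898 to 41992957, mm9). Eno1, the common enolase, had levels of 6.12, 6.26, 5.93, 5.73 and 5.79 in tumor samples, against 5.69, 5.91, 5.63, 5.09 and 5.20 in normal pancreas samples. Normal replicates 2 with 3 lay inside the tumor range and the other normal samples below it, for a log2 difference of 0.46 ± 0.23 (SE, limma adjusted p = 0.431), and the probe shares bases with one named for Eno1b. Eno2, the enolase of neurons, ran from -1.06 to 1.15 in tumor samples and from -0.77 to 1.09 in normal pancreas samples, at -0.53 ± 0.45. Pkm2, the file's name for the pyruvate kinase gene Pkm, ran from 4.19 to 4.96 in tumor samples and from 3.18 to 4.602 in normal pancreas samples, at 0.61 ± 0.32. The groups overlapped for both. Pgk1, the first enzyme of the pathway to make ATP, ran from 1.41 to 2.23 in tumor samples and from 0.80 to 2.79 in normal pancreas samples, at 0.39 ± 0.39. Gapdh, often used as a loading control, ran from 7.33 to 7.88 in tumor samples and from 6.85 to 7.99 in normal pancreas samples, at 0.30 ± 0.26, and its highest value was that of normal replicate 1. The Gapdh probe shares bases with one named for Gm6981.

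Lactate dehydrogenase turns pyruvate into lactate, and pyruvate dehydrogenase kinases inhibit pyruvate dehydrogenase. Beside Slc16a3, the 3 other tested genes of this step had positive differences, and the median of the 4 was 0.71. Ldha, the subunit that HIF induces, had levels of 6.32, 6.43, 6.23, 5.94 and 6.08 in tumor samples, against 5.88, 6.52, 5.87, 5.55 and 5.50 in normal pancreas samples. The highest value of all was that of normal replicates 2 with 3, while the other normal samples lay below every tumor sample, and the log2 difference was 0.34 ± 0.24 (SE, limma adjusted p = 0.583). Ldhb, the subunit of heart, differed by 0.83 ± 0.96 and Pdk1, a HIF-induced kinase, by 0.59 ± 0.60 (limma adjusted p = 0.746 and 0.704). The level of Ldhb ran from -5.77 to -0.29 in tumor samples and from -3.65 to -1.40 in normal pancreas samples. Its lowest tumor value lay far from the others. The Ldhb probe was well above background on 4 tumor and 3 normal pancreas arrays. Like the Ldha probe used, the Ldhb probe shares at least 25 bases with a probe of another name. The level of Pdk1 ran from -2.63 to -0.23 in tumor samples and from -3.83 to -0.70 in normal pancreas samples. Pdk3 was on no array well above background and was not tested.

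The bifunctional PFKFB enzymes set the amount of fructose 2,6-bisphosphate, the activator of phosphofructokinase. Pfkfb3, the isozyme with the strongest kinase activity, had levels of 3.95, 2.47, 2.09, 3.03 and 3.33 in tumor samples, against 2.28, 2.35, 2.32, 1.95 and 2.28 in normal pancreas samples. Tumor replicate 3 lay within the narrow normal range and the other tumor samples above it, with a log2 difference of 0.74 ± 0.33 (SE, limma adjusted p = 0.381). Pfkfb4, a related isozyme that hypoxia induces, ran from 3.05 to 3.46 in tumor samples and from 2.34 to 3.78 in normal pancreas samples, at -0.02 ± 0.28.

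The HIF subunits and their prolyl hydroxylases gave no call. Hif1a, the alpha subunit of HIF-1, had levels of -2.69, -2.60, -4.95, -5.17 and -2.17 in tumor samples, against -4.16, -3.45, -4.87, -4.84 and -5.72 in normal pancreas samples. It was well above background on 3 tumor arrays and on no normal pancreas array, so its level in normal pancreas is only bounded and no fold is given (limma adjusted p = 0.52). Of the tumor samples 3 lay above all normal samples and the others within the normal range. Epas1, the alpha subunit of HIF-2, had levels of -0.78, -0.08, 0.03, 0.11 and 0.46 in tumor samples, against -0.25, 1.91, -0.43, 1.16 and 0.10 in normal pancreas samples. Its 2 highest values were normal samples, and the log2 difference was -0.55 ± 0.46 (SE, limma adjusted p = 0.638).

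Egln1, the main oxygen-sensing hydroxylase, had levels of -0.003, -2.02, -1.34, -0.64 and -3.12 in tumor samples, against -2.06, -2.87, -0.96, -1.59 and -1.38 in normal pancreas samples. Its groups lay across each other, at 0.35 ± 0.57 (SE, limma adjusted p = 0.827). Egln3, a hydroxylase that HIF induces, had levels of 0.22, 0.41, 0.45, -0.57 and -1.05 in tumor samples, against -1.10, -2.93, 0.54, -0.85 and -2.68 in normal pancreas samples. Its highest value was that of normal replicate 4, and the log2 difference was 1.30 ± 0.63 (SE, limma adjusted p = 0.421).

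Of 8 further hypoxia targets 7 were tested, 6 with positive differences, and the median was 0.47. Vegfa, the main growth factor for blood vessels, had levels of 2.68, 3.87, 3.12, 1.37 and 3.88 in tumor samples, against 2.34, 3.70, 1.15, 1.35 and 1.999 in normal pancreas samples. It varied as much within the groups (SD 1.04 in tumor and 1.01 in normal pancreas) as between them, at 0.88 ± 0.58 (SE, limma adjusted p = 0.554). Ero1l, an oxidase of the endoplasmic reticulum now named Ero1a, had levels of -1.17, -1.15, -0.21, -2.92 and -0.41 in tumor samples, against -2.23, -4.07, -1.26, -2.003 and -3.05 in normal pancreas samples. Tumor replicates 4 with 6 lay among the normal samples and the other tumor samples above them, with a log2 difference of 1.35 ± 0.61 (SE, limma adjusted p = 0.381), and the probe was well above background on 4 normal pancreas arrays. Ankrd37, an ankyrin-repeat protein, ran from -3.47 to -0.60 in tumor samples and from -4.09 to -1.06 in normal pancreas samples, at 1.30 ± 0.67, and was well above background on 5 tumor and 2 normal pancreas arrays. Ankrd37 and Hif1a entered the test through the tumor arrays alone. The other targets tested overlapped between the groups too. Ddit4, an inhibitor of mTORC1 signalling, ran from 3.04 to 4.63 in tumor samples and from 2.53 to 4.08 in normal pancreas samples, at 0.47 ± 0.37. Bnip3, a receptor of mitophagy, ran from -1.21 to 1.62 in tumor samples and from -0.65 to 1.52 in normal pancreas samples, at 0.34 ± 0.59. Ndrg1, a protein that hypoxia and differentiation induce, ran from -0.35 to 1.22 in tumor samples and from -1.78 to 1.85 in normal pancreas samples, at 0.26 ± 0.60. For Bnip3 and Ndrg1 the standard error exceeded the difference. P4ha1, a collagen prolyl hydroxylase, ran from -2.22 to -1.36 in tumor samples and from -2.24 to -0.70 in normal pancreas samples, at -0.33 ± 0.35. Adm, the vasodilator peptide adrenomedullin, was on no array well above background.

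Ratios between isozymes within a sample do not depend on the scaling between arrays, and 14 such pairs were compared. Pfkp over Pfkm had log2 ratios of 2.91, 2.63, 1.41, 1.70 and 1.98 in tumor samples, against 1.29, 0.76, 0.82, -1.17 and 0.33 in normal pancreas samples. Pfkl over Pfkm had log2 ratios of 3.15, 2.94, 2.14, 2.26 and 2.20 in tumor samples, against 1.38, 1.91, 0.997, 0.72 and 0.52 in normal pancreas samples. In both pairs every tumor sample lay above every normal sample, with differences of 1.72 and 1.43 between the means. Their 2-sided exact permutation p was 0.00794, the smallest that the assignments of 10 samples to 2 groups can give, and 0.0556 after adjustment over the 14 pairs. The ratio of Hk2 over Hk1 averaged -4.20 ± 0.37 in tumor and -5.14 ± 0.43 in normal pancreas (SD, n = 5 each), a difference of 0.94 (exact permutation p = 0.0159, adjusted 0.0741). Hk3 over Hk2 differed by -1.13, Eno2 over Eno1 by -0.99 and Pfkfb4 over Pfkfb3 by -0.76 (exact permutation p = 0.0635, 0.0873 and 0.0794, each 0.175 after adjustment). No pair passed an adjusted p under 0.05, and 3 of the 14 had an unadjusted p under 0.05. These pairs share genes, and a ratio of 2 probes shows unequal difference and not which one moved. The pairs with Pfkp rest on its brighter probe, which differed by 1.29 where the other Pfkp probe differed by 0.16.

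**Figure D3:**
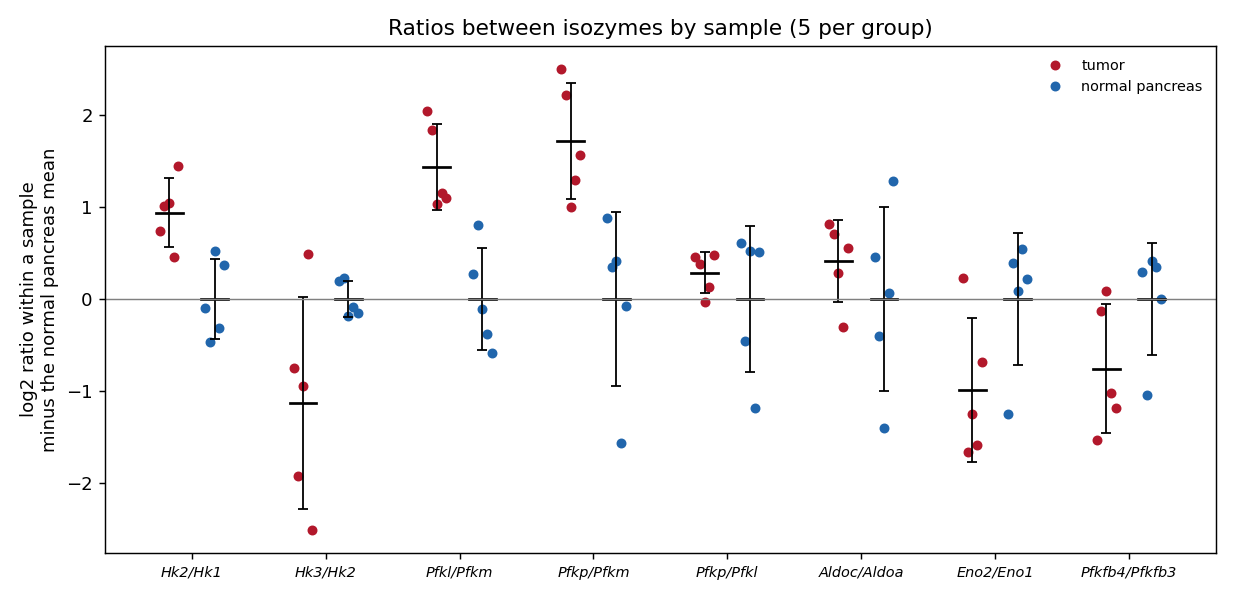
Log2 ratio of 2 isozymes within each sample for 8 of the 14 pairs, minus the mean of the normal pancreas samples, with tumor samples (red) left of normal pancreas samples (blue) and bars for mean and SD (n = 5 each). The groups are apart for Pfkl over Pfkm and Pfkp over Pfkm, and they overlap for the other pairs shown.

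The samples were not alike within a group. Set against the midpoint of the 2 group means of each gene, the median over the 34 genes was 0.53, 0.52, 0.31, -0.12 and 0.19 in tumor samples, against -0.18, 0.08, -0.07, -0.46 and -0.54 in normal pancreas samples. Tumor replicates 4 with 6 thus lay below normal replicates 2 with 3 and normal replicate 4, with 10 of 34 genes above the midpoint, where tumor replicate 1 had 31. Normal replicates 2 with 3 had 19 genes above it, and normal replicates 5 and 6 had 8 and 7. Over all genes tested the same medians ran from 0.01 to 0.05 in tumor samples and from -0.01 to 0.05 in normal pancreas samples. The median log2 difference over the 34 genes was 0.47 on slide 1, 0.08 on slide 2 and 0.58 on slide 3. Slide 2 holds 1 array of each averaged sample, tumor replicate 4 and normal replicate 3.

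**Figure D4:**
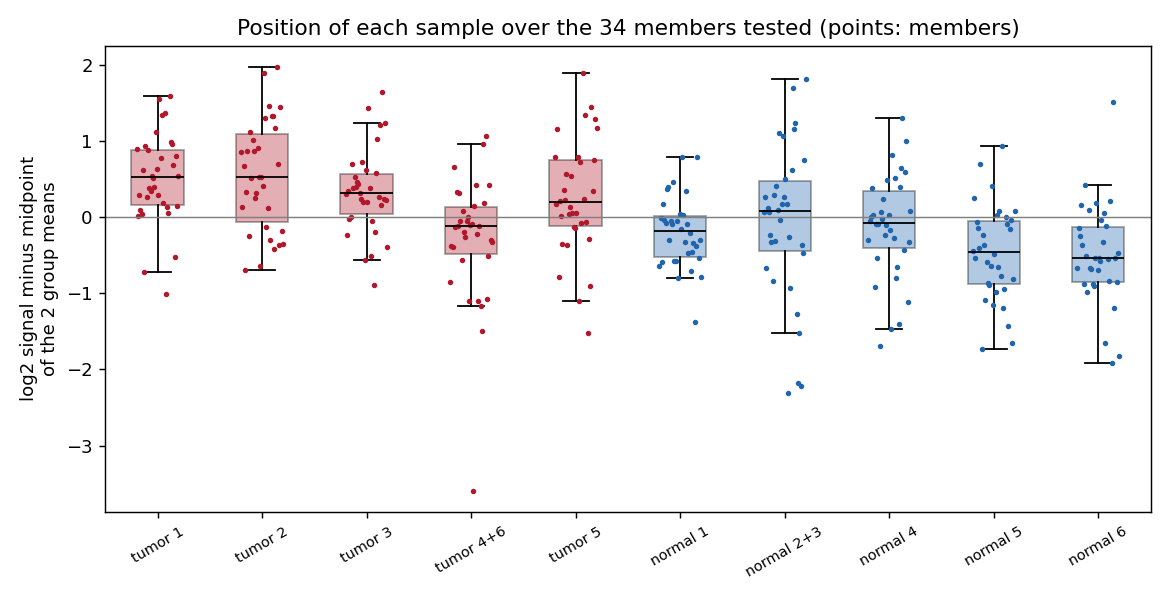
Level of each of the 34 genes tested in each sample, minus the midpoint of the gene's 2 group means (log2 signal), with tumor samples (red) left of normal pancreas samples (blue). Boxes span the quartiles with the median as a line, and the medians run from -0.12 to 0.53 in tumor samples and from -0.54 to 0.08 in normal pancreas samples.

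Other genes of the same pathways, in 6 lists, were read from the same fit, and limma called 0 genes in each, with unadjusted p under 0.05 as follows. Of 16 tested glycolytic and gluconeogenic genes, 9 differences were positive and the median was 0.26, with 3 higher and 0 lower. The smallest p were those of the glucose transporter Slc2a6 (1.23 ± 0.41, limma adjusted p = 0.232), of Tigar, a fructose 2,6-bisphosphatase (limma adjusted p = 0.271), and of Pgm1, a phosphoglucomutase (0.75 ± 0.33, 0.366). The Tigar probe was well above background on 5 tumor and 0 normal pancreas arrays, so it was tested through the tumor arrays alone and no size is given. Of 8 genes of the pentose phosphate pathway, which branches off at glucose 6-phosphate and makes NADPH, 7 were positive, the median was 0.51, and 3 were higher and 0 lower. These were Taldo1 (0.82 ± 0.23, limma adjusted p = 0.15), Pgd (0.82 ± 0.26, 0.214) and Tkt (0.73 ± 0.24, 0.23), enzymes of both branches of that pathway.

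Of 19 genes of the tricarboxylic acid cycle, 14 were positive and the median was 0.27, with 4 higher and 0 lower. They were led by the succinate dehydrogenase subunit Sdha (0.70 ± 0.20, limma adjusted p = 0.171), the isocitrate dehydrogenase subunit Idh3a (1.34 ± 0.45, 0.24) and Ogdh (0.61 ± 0.21, 0.253). Idh3a was well above background on 4 tumor arrays and 1 normal pancreas array and was tested through the tumor arrays alone, so its size is uncertain. Of 13 genes of pyruvate and lactate handling, 6 were positive and the median was -0.03, with 1 higher and 1 lower. The mitochondrial pyruvate carrier Mpc1 differed by 0.90 ± 0.32 (limma adjusted p = 0.276), the monocarboxylate transporter Slc16a7 (MCT2) by -0.83 ± 0.32 (0.308) and the pyruvate dehydrogenase subunit Pdhb by 0.49 ± 0.23 (0.401). Slc16a1 (MCT1) was on no array well above background and Bsg, the chaperone of MCT4, differed by -0.11 ± 0.30 (limma adjusted p = 0.902). Slc16a1 and Bsg were picked as relatives of Slc16a3 after their values were seen.

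The machinery of HIF and its remaining targets gave medians near and below 0. Of 13 machinery genes 7 were positive, the median was 0.06, and 1 was higher and 1 lower. Hif3a differed by -0.77 ± 0.24 (limma adjusted p = 0.21), Vhl, which tags hydroxylated HIF alpha for destruction, by 0.83 ± 0.27 (0.222) and Egln2 by -0.26 ± 0.19 (0.59). Of 31 other hypoxia targets 12 were positive, the median was -0.38, and 2 were higher and 5 lower. Tfrc, the transferrin receptor, was on no tumor array and on 3 normal pancreas arrays well above background. It is among the 5 lower genes, but was tested through the normal pancreas arrays alone, so no size is given (limma adjusted p = 0.0563). Stc2, a secreted glycoprotein, differed by -1.74 ± 0.37 (limma adjusted p = 0.0603) and Bhlhe40, a transcriptional repressor, by 1.498 ± 0.38 (0.124).

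**Figure D5:**
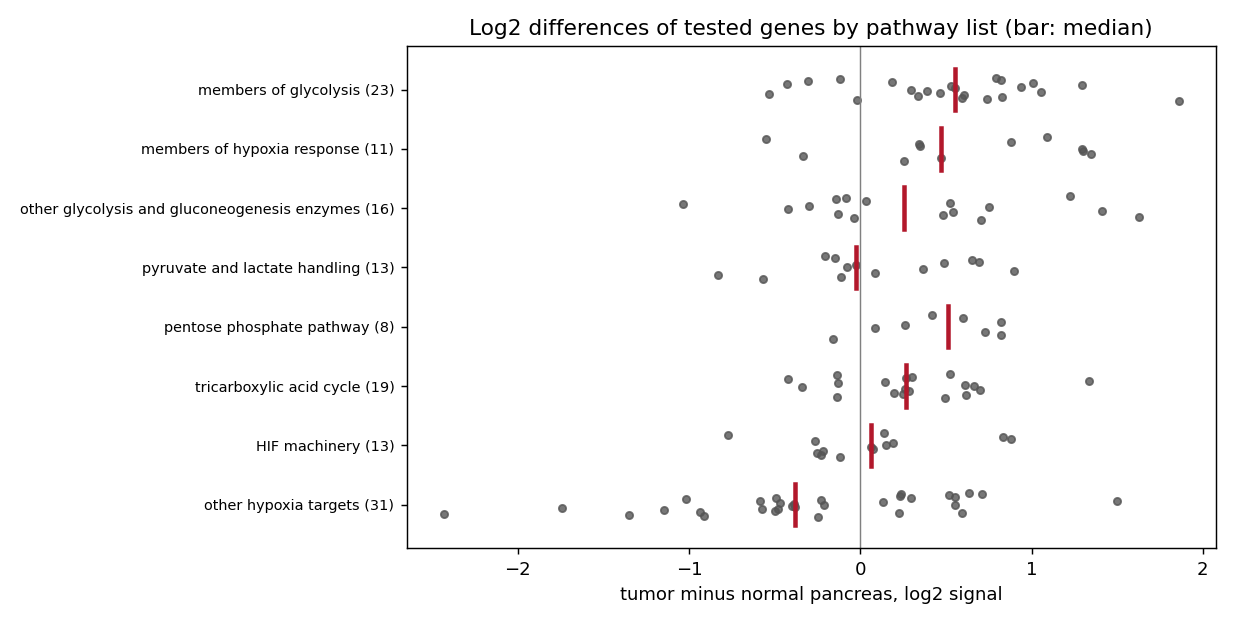
Log2 difference, tumor minus normal pancreas, of every tested gene in 8 lists, with the number tested in parentheses and the list median as a red bar. The 23 glycolytic and 11 hypoxia genes described here are the top rows, and the median is 0.51 for the pentose phosphate pathway and -0.38 for the other hypoxia targets.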

How the data were processed

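Total RNA of sorted cells was amplified as cDNA with a whole-transcriptome kit and labelled with Cy5, per the labels' protocols, so a difference is one of amplified signal. The intensity values the authors deposited are processed red signals of Agilent Feature Extraction 11.5.1.1, per the file headers. Their deposited log2 table equalled quantile-normalized log2 processed signals (median absolute difference 0.000129, column medians 7.08) and served as an alternative.

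Outlier spots (0.401%) were left out. Log2 processed signals were averaged per probe (39429 probes) and scaled by subtracting each array's 75th percentile. A gene was taken from its brightest probe and tested if that probe was well above background on at least 3 of 6 arrays of either group. Probes were named through a RefSeq table of GRCm38.p6 (28025 by accession, 3413 by symbol, 295 by synonym), and 4985 were left as the file names them. The comparison used lmFit and eBayes of limma 3.58.1 (R 4.3.3, 2-sided, Benjamini-Hochberg over 16385 genes), which was tested on simulated data. The median SE was 0.36 with 10.8 degrees of freedom, and the number of arrays limits the precision. Arrays of 1 name correlated at 0.993 and 0.995 and counted as 1 sample. Each of the 3 slides held 2 arrays of either group. Whether the samples come from separate animals is not labelled, and p-values rest on their spread alone, part of which may be technical.

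The genes and lists were chosen with earlier results of these data known. By the rule for named genes, every gene is accounted for, values by sample are given for the 12 with the smallest p and for Hif1a, Epas1, Egln1, Egln3, Slc2a1, Ldha and Vegfa, and the 3 smallest p of each other list are named. The alternatives changed the background correction, the scaling, the filter, the probe, the slides used, the thresholds or the variance model, added an acinar covariate, or left out each sample in turn. Replicate numbers follow accession order, since the labels give none. Some marker genes are not reported here.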

Additional observations from a re-analysis of the deposited data

Results flagged for a closer look

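Each of the 37 genes was screened in both groups for a sample far from the other 4 (Dixon's test at the 95% level), and 5 of 74 groups of values had one, where chance gives about 1 in 20. In normal pancreas, Aldoc was 0.57 in replicate 4 (nearest other value 1.90), Pdk1 was -3.83 in replicates 2 with 3 (nearest -1.56), and Pfkfb3 was 1.95 in replicate 5 (nearest 2.28). In tumor, Ldhb was -5.77 in replicates 4 with 6 (nearest -1.39) and Adm, which was not tested, was -4.52 in replicate 5 (nearest -5.17).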

How the results depend on the processing

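The direction of Slc16a3 held under every alternative run, and it passed in 15 of 19 settings other than thresholds and left-out samples, the exceptions being the single slides and the acinar covariate. The 136 genes called and the 1 among the 34 became 267 and 1 at an adjusted p under 0.1, 46 and 0 under 0.01, 212 and 3 with normexp background correction (Pfkl, Pgam1 and Slc16a3), 460 and 3 with the 12 arrays as separate samples (Pfkl, Pfkp and Slc16a3), and 237 and 3 with a variance trend and robust shrinkage (Pfkl, Pgam1 and Slc16a3). They were 0 and 0 within slides 1, 2 and 3 and with the acinar covariate, where 1586, 1570, 946 and 509 genes, and 7, 3, 3 and 0 of the 34, had an unadjusted limma p under 0.05. Leaving out samples gave 63 to 198 genes, with 85 without normal replicate 1, 89 without normal replicate 4, 63 without normal replicate 5, 80 without tumor replicate 1 and 74 without tumor replicate 2, and 1 of the 34 each time. The median over the 34 genes was 0.078 on slide 2 alone and 0.39 to 0.72 without 1 sample. Scaling on the macrophage markers moved the median of all genes to 0.19 and that of the 34 genes to 0.73. A filter to probes well above background on all 12 arrays was added after the data were seen.

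The following log2 differences changed sign, none of them past the threshold, and the cause was not tested. With normexp Hk1 was 0.026, Pfkfb4 0.036 and Egln1 -0.055, and with macrophage scaling Hk1 was 0.071 and Pfkfb4 0.17. With 12 separate arrays Pfkfb4 was 0.10, Bnip3 -0.17 and Ndrg1 -0.14, and with the mean over probes Pfkfb4 was 0.24. On slide 1 Gapdh was -0.015, Eno2 0.091, Pfkfb4 0.48, Ddit4 -0.20 and Ndrg1 -0.38. On slide 2 Slc2a1 was -0.18, Hk3 0.066, Gpi1 -0.15, Pfkm 0.28, Aldoa -0.11, Pgk1 -0.61, Ldha -0.11, Ldhb -0.47, Pfkfb4 0.072, Hif1a -0.85, Vegfa -0.13, Bnip3 -1.07, Ddit4 -0.30 and Ndrg1 -1.31. On slide 3 Ldhb was -0.64, Pdk1 -0.50, Egln1 -0.30 and P4ha1 0.12. With the acinar covariate Hk1 was 0.0096, Aldoc -0.25, Ldhb -1.69, Pdk1 -1.92, Epas1 1.19, Egln1 -1.68, Ankrd37 -1.99 and P4ha1 0.39. That covariate largely follows the groups, so these values cannot separate acinar RNA from group. With normexp the ratio of Pfkp over Pfkl was -0.033 and that of Ldhb over Ldha -0.083. Without 1 sample in turn, Egln1 ran from -0.0077 to 0.77, Ndrg1 from -0.17 to 0.74 and Pfkfb4 from -0.25 to 0.11, and the ratios of Hk3 over Hk1 from -0.47 to 0.028, of Pdk3 over Pdk1 from -0.72 to 0.46 and of Pfkp over Pfkl from -0.011 to 0.44. The pairs passing an adjusted p under 0.05 were 0 in every setting run for them. No paired analysis was possible because the replicate numbers were given in accession order and the labels give none. Background limits the dim probes, of which Hif1a, Ankrd37, Ldhb and Egln1 were well above it on at most 8 of 12 arrays.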
